A study of Mus musculus with 185 samples.

Results

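The lysyl oxidase family comprises 5 genes in the mouse, Lox, Loxl1, Loxl2, Loxl3 and Loxl4. Its members were taken by gene symbol from the deposited expression table as Lox and its paralogs, whatever their values, and they make up 5 of the 17171 genes listed. Lysyl oxidases are secreted, copper-dependent enzymes that oxidise lysine and hydroxylysine side chains of collagen and elastin, and the aldehydes they form condense into covalent crosslinks between neighbouring chains. Crosslinking renders collagen fibrils and elastic fibres insoluble and stiff, and in the infarcted heart it is part of how the collagen scar gains tensile strength. Lox and Loxl1 are made with a pro-region that is cleaved outside the cell, whereas Loxl2, Loxl3 and Loxl4 carry scavenger receptor domains ahead of the catalytic domain.

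The members were examined in 185 single cells of the adult mouse heart, 152 from the infarct region and 33 from uninjured hearts. Interstitial cells were sorted against CD31 (endothelial) and CD45 (haematopoietic), captured singly on the Fluidigm C1 system and sequenced as 1 library per cell. All mice were C57BL/6 (backcross N=6) of about 5 months and carried an R26-eGFP reporter together with either Postn MCM/+ or Tcf21 MCM/+. In these lines a tamoxifen-dependent MerCreMer cassette sits in the Postn or the Tcf21 locus, and a cell in which that locus was active under tamoxifen expresses eGFP from Rosa26 from then on. A traced cell need not still express Postn or Tcf21, labelling by the cassette is incomplete, and the Postn MCM allele takes the place of a normal Postn copy. Myocardial infarction (MI) was made by permanent ligation of the left coronary artery, and the study's legends date the traced infarct cells to a week after it. The length of tamoxifen treatment of each capture is not given in the sources used here.

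By their labels the cells formed 9 classes, and by their names they came from 4 captures. The capture of uninjured hearts held 12 resident CD31- CD45- cells labelled without Postn, 17 resident Tcf21-traced cells, 3 resident Tcf21 cells labelled Postn-positive and 1 resident CD31- CD45- cell labelled Postn-positive. The study text places the resident CD31- CD45- cells in uninjured hearts in its results and control cells of this kind in a remote region of the heart in a legend, and uninjured hearts, as in the results, is used here. An infarct capture of Postn tracer mice held 27 activated Postn-traced cells, 24 activated Postn-negative cells, which are defined by their lack of Postn mRNA, and 6 untraced cells labelled Postn-positive. An infarct capture with the Tcf21 tracer held 44 activated Tcf21-traced cells and 19 untraced Postn-positive cells. The remaining capture held 29 untraced scar cells and 3 untraced Postn-positive cells, and their tracer allele and time after MI are not given in the labels.

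Values are log2(TPM + 1) as deposited, where TPM is an abundance per transcript length that sums to between 999256 and 1e+06 in each cell, so levels may be compared between members. A member was called detected in a cell above 5 TPM, which is 2.58 on this log2 scale. For a class, the level given is its mean on this scale with the SD between cells, and a difference is 1 such mean minus another. The mouse that a cell came from is not given in its label, so each class is 1 sample without a replicate, and no difference was tested. The sequencing depth of each cell is unknown from these values, and the number of genes above 5 TPM stands in for it. That number ranged from 141 to 5419 with a median of 2770, and its class medians ran from 2091.5 in the resident CD31- CD45- cells to 3643 in the Postn-traced cells. In 7 cells, of which 6 were scar cells, fewer than 50% of the median number of genes of their capture were above 5 TPM. An exact 0 was also listed for at least 1 of 8 genes used by nearly every cell in 11 cells, 6 of them among those 7, so a 0 is described below only as listed at 0.

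The labels call all cells fibroblasts, and most held fibroblast markers. At least 3 of 6 fibroblast markers (Col1a1, Col3a1, Dcn, Pdgfra, Tcf21, Lum) were above 5 TPM in 180 of 185 cells. No cell held 3 of the 5 endothelial markers listed in the table, 2 cells held 3 or more of 6 myeloid markers, 5 cells held that number of pericyte markers, and 1 cell each held it for cardiomyocyte and epicardial markers. Smooth muscle markers, several of which activated fibroblasts also use, reached that number in 21 cells. Postn itself was above 5 TPM in 3 of the 24 Postn-negative cells and 3 of the 12 resident CD31- CD45- cells labelled without it. A single resident CD31- CD45- cell went against the CD45- part of its label. It held 5 myeloid markers at a summed 18057 TPM, Ptprc (the gene of CD45) at 9.25 on the log2 scale, Col1a1 and Pdgfra listed at 0 but Dcn at 10.75, and none of the 5 family members above 5 TPM. The values of its class are given with it, and without it where a member's difference moved by more than 1.5 times or came under 1 log2 unit.

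The members lie on separate chromosomes. In build GRCm38 (mm10) and the GENCODE vM21 annotation, Loxl1 lies at chr9:58287738-58313186 on the minus strand. Loxl2 lies at chr14:69609068-69695834 on the plus strand, and Loxl3 at chr6:83034173-83052562 on the plus strand. Loxl4 lies at chr19:42593982-42612813 on the minus strand. What all members share is the catalytic domain, in which the copper ion is held by histidines. The 30 coding bases that end at these histidines are shown for the 4 Loxl genes because they show how close the paralogs are at the catalytic site, with the codons of the copper-binding histidines in capitals and each stretch read 5′ to 3′ on the gene's own strand from its GENCODE transcript.
Loxl1: gagtggcatagctgtCACcaaCATtacCAC
Loxl2: atttggcacgactgcCACaggCACtacCAC
Loxl3: gtgtggcatgagtgtCATgggCATtacCAC
Loxl4: atttggcaccagtgcCACaggCACtacCAC
In each gene the stretch crosses from an exon into the next, with 20 bases in the former and 10 in the latter. For Loxl1 these are exon 3 (chr9:58294359-58294378) and exon 4 (chr9:58293720-58293729), and for Loxl2 exon 10 (chr14:69682319-69682338) and exon 11 (chr14:69689028-69689037). For Loxl3 they are exon 10 (chr6:83049998-83050017) and exon 11 (chr6:83050116-83050125), and for Loxl4 exon 11 (chr19:42599877-42599896) and exon 12 (chr19:42598807-42598816). Loxl2 and Loxl4 share 28 of the 30 bases (93.3%), whereas Loxl1 and Loxl4, the least alike, share 18 (60%). Loxl3 shares 22 bases with each of the other 3 genes shown.

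Over the whole coding transcripts the longest run of bases common to any pair of members was 32, between Lox and Loxl1, and the shortest such maximum was 11, between Lox and Loxl4. No pair therefore shares an exact run as long as a sequencing read of this study. How reads that match with mismatches were assigned between members was not tested. Genes on the opposite strand are another matter, since nothing in the sources used here states that strand was used in counting. The start of Lox, which occupies chr18:52516067-52529867 on the minus strand of GRCm38 (mm10), is overlapped over 1207 bases by the antisense gene AC161119.1, with 30 exonic bases in common (0.628% of those of Lox). Loxl2 is overlapped over 74219 bases by the antisense gene Gm27177, with 301 exonic bases in common (5.57%), and by Gm37513 with 0. The 3′ end of Loxl3 is overlapped over 1297 bases by Htra2, a mitochondrial protease gene, with 535 exonic bases in common (11.6%). Reads from these shared exonic bases cannot be told apart without strand. The values of Lox, Loxl2 and Loxl3 are therefore uncertain by an amount that was not measured and that the shares of bases do not give.

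Lox, which crosslinks fibrillar collagen and elastin and gives the family its name, divided the classes most. In the uninjured hearts the lowest, median and highest Lox levels were 0, 0 and 4.32 on the log2 scale over the 12 resident CD31- CD45- cells and 0, 0 and 8.30 over the 17 resident Tcf21-traced cells. In the Postn tracer capture they were 0, 0 and 8.52 over the 24 Postn-negative cells and 0, 8.05 and 9.82 over the 27 Postn-traced cells. Lox was thus low in nearly every resident and Postn-negative cell and high in nearly every Postn-traced cell, although the ranges overlapped through a few cells on either side. In the Tcf21 infarct capture the levels were 0, 7.76 and 10.81 over the 44 Tcf21-traced cells and 3.36, 8.20 and 9.99 over the 19 untraced Postn-positive cells. The 29 scar cells ran from 0 through a median of 5.49 to 9.76. The untraced Postn-positive cells of the Tcf21 capture had no low Lox value. The Tcf21-traced and scar cells split into a larger high group and a smaller group at or near 0, as the plot of levels in single cells shows. The low scar group included cells with few genes. Scar cells without detected Lox had a median of 1411.5 genes above 5 TPM, against 3232 with it. In the Tcf21-traced class, which held 0 few-gene cells, these medians were 2410 and 3487.

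**Figure D1:**
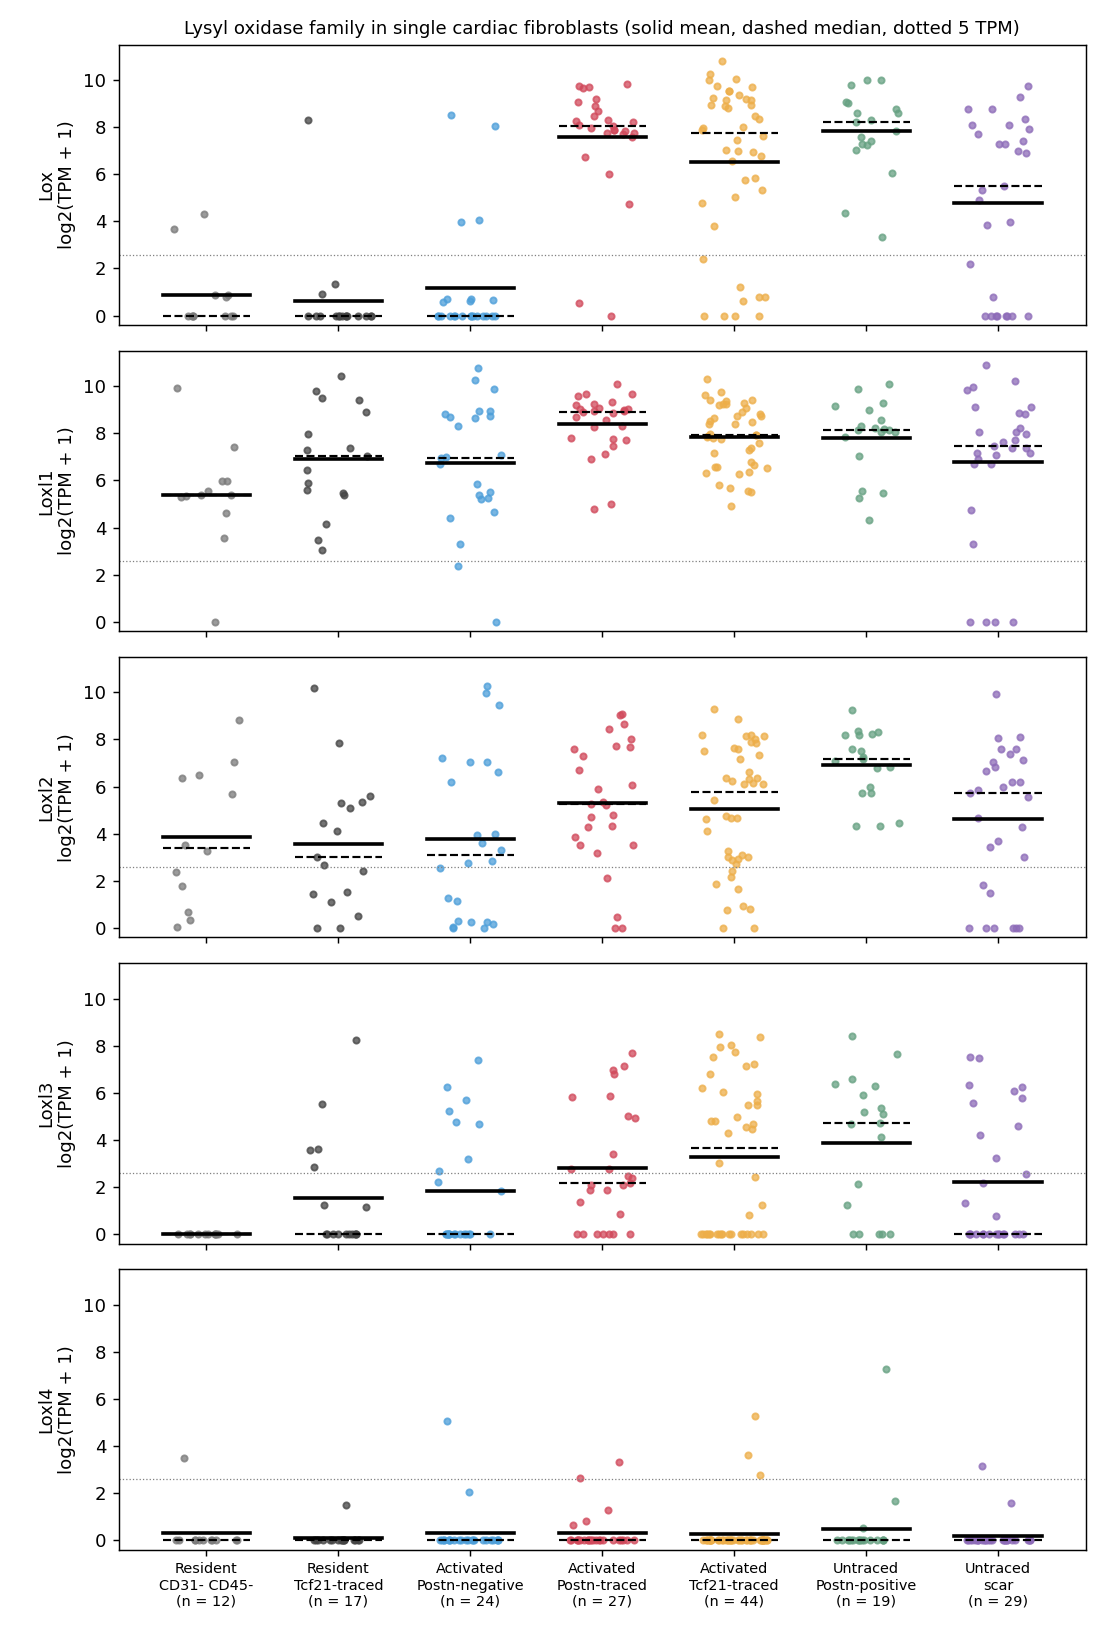
Levels of Lox, Loxl1, Loxl2, Loxl3 and Loxl4 as log2(TPM + 1) on the vertical axes, a point per cell, in the 7 class-and-capture sets of at least 10 cells on the horizontal axis; solid bars are means, dashed bars medians, and the dotted line is 5 TPM. Lox is near 0 in most cells of the 3 sets on the left (medians 0) and high in most cells of the 3 sets to their right (medians 8.05, 7.76 and 8.20), whereas Loxl1 is high in every set and Loxl4 near 0 in every set.

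As class means, Lox was 7.81 ± 1.76 (SD, n = 19 cells) in the untraced Postn-positive cells of the Tcf21 capture, 7.57 ± 2.39 (n = 27) in the Postn-traced cells and 6.54 ± 3.41 (n = 44) in the Tcf21-traced cells. The scar cells followed at 4.80 ± 3.62 (SD, n = 29). The Postn-negative cells had 1.16 ± 2.46 (n = 24), the resident CD31- CD45- cells 0.88 ± 1.51 (n = 12) and the resident Tcf21-traced cells 0.62 ± 2.01 (n = 17). Every neighbouring pair in this order differed by less than both of its SDs except the scar and Postn-negative cells, whose means lay 3.63 log2 units apart, which exceeded both SDs. Among the 7 sets of at least 10 cells the order therefore held an upper group of activated classes and a lower group that united the Postn-negative infarct cells with both resident classes. It gave no ranking within either group. The gap was barely above the larger SD (3.62), and a smaller set fell inside it. That set was the 6 untraced Postn-positive cells of the Postn tracer capture, with a mean of 3.75 ± 3.43 (SD). In the sets of fewer than 10 cells, Lox ran from 0 to 8.02 over the 6 untraced Postn-positive cells of the Postn tracer capture, with a median of 3.63. The 3 such cells of the scar capture had 0, 8.17 and 8.35. Lox was at 0, 0 and 0.71 in the 3 resident Tcf21 cells labelled Postn-positive and listed at 0 in the resident CD31- CD45- cell with that label, so a Postn-positive label in an uninjured heart did not come with detected Lox in these 4 cells.

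Loxl1, a crosslinking enzyme of elastic fibres that binds fibulin-5, was the member found in almost all cells. In the uninjured hearts its lowest, median and highest levels were 0, 5.39 and 9.91 on the log2 scale over the resident CD31- CD45- cells and 3.05, 7.03 and 10.43 over the resident Tcf21-traced cells. In the Postn tracer capture they were 0, 6.97 and 10.77 over the Postn-negative cells and 4.78, 8.89 and 10.07 over the Postn-traced cells. These 4 classes overlapped widely and had like highest values, and low values were found in the resident CD31- CD45- and Postn-negative cells. In the Tcf21 infarct capture the levels were 4.93, 7.93 and 10.30 over the Tcf21-traced cells and 4.32, 8.16 and 10.08 over the untraced Postn-positive cells, and in the scar cells 0, 7.47 and 10.91. The class means ran from 5.37 ± 2.30 (SD) in the resident CD31- CD45- cells to 8.40 ± 1.29 in the Postn-traced cells, and no neighbouring pair in that order differed beyond its SDs. The 4 scar cells with Loxl1 listed at 0 were among the cells with few genes.

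Loxl2, which has a particular role in crosslinking type IV collagen of basement membranes, was intermediate. Its lowest, median and highest log2 levels were 0.04, 3.40 and 8.82 in the resident CD31- CD45- cells and 7.32e-11, 3.01 and 10.18 in the resident Tcf21-traced cells. The Postn-negative cells ran from 1.03e-13 through 3.08 to 10.28, and the Postn-traced cells from 0 through 5.27 to 9.06. These 4 classes each spanned most of the scale, so that low and high Loxl2 cells occurred side by side within each of the 4. The Tcf21-traced cells ran from 3.98e-07 through 5.76 to 9.28, the untraced Postn-positive cells of their capture from 4.32 through 7.16 to 9.26, and the scar cells from 0 through 5.71 to 9.94. The untraced Postn-positive cells held no low Loxl2 value, unlike the other 6 sets. The mean of those untraced Postn-positive cells, 6.91 ± 1.47 (SD), was the highest and exceeded the next, 5.29 ± 2.67 in the Postn-traced cells, by 1.62, more than the smaller SD but less than the larger. The other neighbouring pairs in the order of Loxl2 means, down to 3.57 ± 2.83 in the resident Tcf21-traced cells, differed by less than both SDs.

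Loxl3, which takes part in collagen assembly in cartilage and palate, was detected in a minority of cells of most classes. It was listed at 0 in all 12 resident CD31- CD45- cells, and over the resident Tcf21-traced cells its lowest, median and highest log2 levels were 0, 0 and 8.26. The Postn-negative cells had 0, 0 and 7.41, the Postn-traced cells 0, 2.19 and 7.68, and the scar cells 0, 0 and 7.50. The Tcf21-traced cells had 0, 3.66 and 8.48, and the untraced Postn-positive cells of their capture 0, 4.74 and 8.42. All of the 7 sets of at least 10 cells but the resident CD31- CD45- cells thus mixed cells at 0 with cells at high levels, and their ranges overlapped. The means went from 3.88 ± 2.89 (SD) in the untraced Postn-positive cells of the Tcf21 capture down to 1.54 ± 2.44 in the resident Tcf21-traced cells in steps smaller than both SDs, and the last step, to 0 in the resident CD31- CD45- cells, was smaller than the SD of the former.

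Loxl4, whose product also has a catalytic and scavenger receptor domains, was above 5 TPM in 9 of 185 cells and had a median of 0 in every class. Its means in the 7 sets of at least 10 cells lay between 0.09 and 0.50 on the log2 scale, and neighbours in that order differed by less than both SDs. Its highest level, 7.29 (155 TPM), was in an untraced Postn-positive cell of the Tcf21 capture. The differences of Loxl4 given below rest on these few cells, lie between -0.23 and 0.18 log2 units as differences of class means and change sign under some alternative in each comparison but that of the resident classes.

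On the linear TPM scale, which weighs the cells with most transcripts, the summed family averaged 197 TPM in the resident CD31- CD45- cells, 439 in the resident Tcf21-traced cells and 515 in the Postn-negative cells. The first of these means rests in large part on 1 cell with 1009 TPM, beside a class median of 97.1 TPM. It averaged 932 in the Postn-traced cells, 855 in the Tcf21-traced cells, 952.0 in the untraced Postn-positive cells of the Tcf21 capture and 624 in the scar cells. Its make-up differed between the classes too. Loxl1 gave 63.2%, 69.1% and 62% of family TPM in the resident CD31- CD45-, resident Tcf21-traced and Postn-negative cells, where Lox gave 1.40%, 4.23% and 5.35%. The 63.2% rests on 1 of 12 cells, which held 958 TPM of Loxl1 beside a class mean of 124 TPM. Without that cell Loxl2 would give the larger share, although Loxl1 was the highest member in 7 of the 12 cells and Loxl2 in 4. In the Postn-traced, Tcf21-traced and untraced Postn-positive cells Lox gave 36.5%, 41.7% and 38.2%, beside 47.1%, 39% and 36.5% for Loxl1. The scar cells lay between these groups, with 25.1% from Lox and 54.3% from Loxl1. These 2 shares rest in part on 1 of the 29 scar cells, which held 1926 TPM of Loxl1 beside a class mean of 339 TPM. The low shares of Lox rest on few cells: the single cell at 8.30 held 99.2% of the summed Lox TPM of the resident Tcf21-traced cells. The 2 highest cells held 95% of it in the Postn-negative cells and 92.7% in the resident CD31- CD45- cells, against 19.1% in the Postn-traced cells. Loxl2 gave from 12.4% of family TPM in the Tcf21-traced cells to 35% in the resident CD31- CD45- cells, and Loxl3 at most 6.66%. That 35% depends on single cells too, since 1 of the 12 held 449 TPM of Loxl2 beside a class mean of 68.8 TPM. The next highest share of Loxl2 was 29.1% in the Postn-negative cells, so which class is highest rests on that cell. Lox was the most abundant member in 19 of the 44 Tcf21-traced cells and in 1 of the 24 Postn-negative cells.

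Detection divided the classes along the same line as the Lox level. Lox was above 5 TPM in 25 of 27 Postn-traced cells, 92.6% (exact 95% Clopper-Pearson interval 75.7 to 99.1), and in 4 of 24 Postn-negative cells, 16.7% (4.74 to 37.4). These intervals cover counting error only. It was above 5 TPM in 35 of 44 Tcf21-traced cells, 79.5% (64.7 to 90.2), and in 19 of 19 untraced Postn-positive cells of their capture. In the scar class it was above 5 TPM in 19 of 29 cells, 65.5% (45.7 to 82.1), and in 78.3% of those outside the few-gene group. In uninjured hearts it was above 5 TPM in 1 of 17 resident Tcf21-traced cells, 5.88% (0.149 to 28.7), and in 2 of 12 resident CD31- CD45- cells. Among the sets of at least 10 cells, the interval of each activated class other than the Postn-negative cells lay above those of the resident Tcf21-traced and Postn-negative cells. That of the resident CD31- CD45- cells reached 48.4% and so overlapped the scar interval. The smaller untraced Postn-positive sets, with 4 of 6 (22.3 to 95.7) and 2 of 3 cells (9.43 to 99.2), overlapped the resident Tcf21-traced and Postn-negative intervals. With any value over 0 in place of 5 TPM, Lox was listed in 37.5% of Postn-negative, 41.7% of resident CD31- CD45- and 17.6% of resident Tcf21-traced cells.

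**Figure D2:**
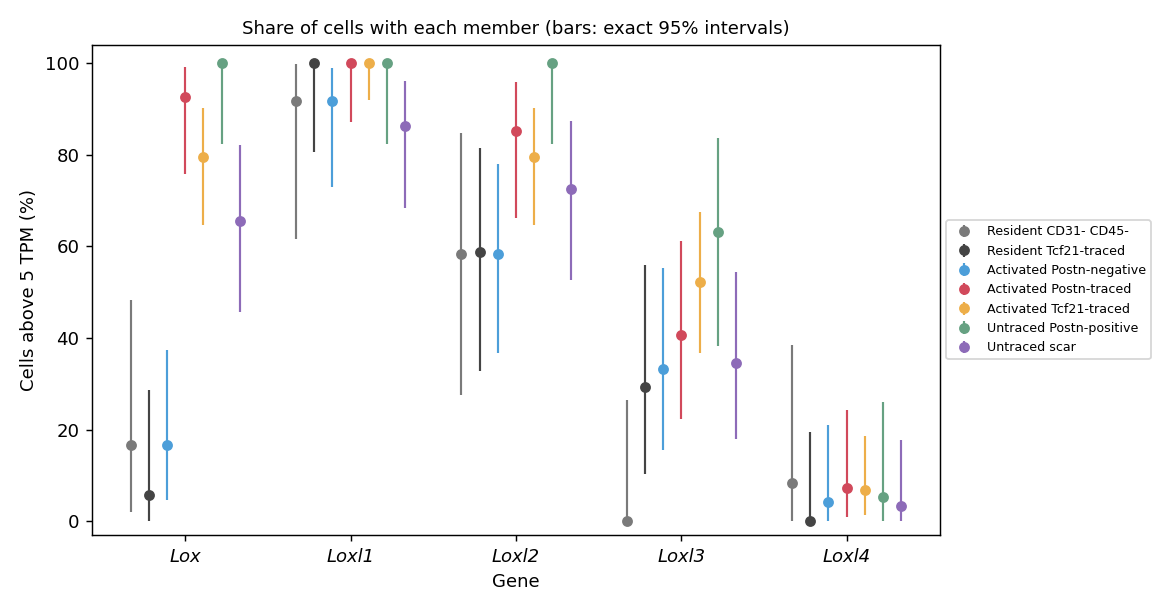
Share of cells above 5 TPM (vertical axis, percent) for each family member (horizontal axis) in the 7 class-and-capture sets of at least 10 cells, distinguished by colour; bars are exact 95% Clopper-Pearson intervals. Lox spans from 5.88% in resident Tcf21-traced cells to 100% in untraced Postn-positive cells, Loxl1 lies at 86.2% or above in each set, and Loxl4 at 8.33% or below.

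Loxl1 was above 5 TPM in 175 of 185 cells and, in the sets of at least 10 cells, in from 86.2% of scar cells to all of the Postn-traced, Tcf21-traced, resident Tcf21-traced and untraced Postn-positive cells of the Tcf21 capture. In smaller sets it was found in 1 of 3 resident Tcf21 cells labelled Postn-positive and 5 of 6 untraced Postn-positive cells of the Postn tracer capture. All 23 scar cells outside the few-gene group held it. Loxl2 was above 5 TPM in 58.3% of both the resident CD31- CD45- and the Postn-negative cells, 58.8% of resident Tcf21-traced cells, 72.4% of scar cells, 79.5% of Tcf21-traced cells, 85.2% of Postn-traced cells and 19 of 19 untraced Postn-positive cells of the Tcf21 capture (82.4 to 100). Outside the few-gene group Loxl2 was above 5 TPM in 91.3% of scar cells. That is above the shares of the Tcf21-traced and Postn-traced cells, so the place of the scar class in this order depends on its few-gene cells. The interval of the Postn-traced cells (66.3 to 95.8) overlapped that of the Postn-negative cells (36.6 to 77.9). Counted at any value over 0, Loxl2 was listed in every resident, Postn-negative and Tcf21-traced cell, many of them at vanishing values, so its detected shares rest on the 5 TPM minimum. Loxl3 was above 5 TPM in 0 of 12 resident CD31- CD45- cells, which allows a share of up to 25% by 3 counts of the total (26.5% by the exact interval), and in 29.4% of resident Tcf21-traced, 33.3% of Postn-negative, 34.5% of scar, 40.7% of Postn-traced, 52.3% of Tcf21-traced and 63.2% of untraced Postn-positive cells. Neighbouring intervals of Loxl3 overlapped throughout. With a minimum of 1 TPM Loxl3 was in 70.4% of Postn-traced and 56.8% of Tcf21-traced cells, so the order of these classes depends on the minimum. Loxl4 was above 5 TPM in 0 of 17 resident Tcf21-traced cells, which allows a share of up to 17.6% by 3 counts of the total (19.5% by the exact interval).

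The comparison of Postn-traced with Postn-negative cells asks how infarct cells that activated Postn differ from neighbours of the same capture that did not. Lox was 6.41 log2 units higher in the Postn-traced cells, more than either SD (2.39 and 2.46), and 5 genes of 13303 differed more in that direction. Loxl1 was 1.67 and Loxl2 1.53 higher, both below the larger SD of the pair, Loxl3 was 0.99 higher and Loxl4 differed by 0.03. More than 2 log2 units higher was 1 member of 5, beside 4.99% of all genes, and 0 members were as much lower, beside 0.767%. More than 1 log2 unit higher were 3 members, Lox, Loxl1 and Loxl2, beside 19.8% of all genes, and 0 were lower by that size, beside 2.77%. The Postn-traced cells also had more genes above 5 TPM (median 3643 against 2342), and the median gene was 0.30 higher in them. Centring each cell on the median of its genes above 5 TPM moved the median of all genes by 0.52, and Lox then differed by 6.93, Loxl1 by 2.19 and Loxl2 by 2.06. More than 2 log2 units higher were then these 3 members, beside 1377 of 13303 genes in place of 664.

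Among only the 13 traced and 12 negative cells of intermediate gene number, Lox differed by 6.04, and with the 6 untraced Postn-positive cells added to the negative class by 5.89. As the difference in log2 of mean TPM, which weighs the few high Postn-negative cells most, Lox differed by 3.58 and Loxl1 by 0.46, and Loxl2 changed sign to -0.29. In medians over cells Loxl3 differed by 2.19. Smooth muscle markers moved with the classes too, with at least 3 of 6 in 3 of 27 traced and 0 of 24 negative cells, and a summed mean of 747 TPM against 87.2 TPM. Tagln, at 514 TPM, was the most abundant of them in the traced cells, and Smtn, at 52 TPM, in the negative cells, where Myh11, Cnn1 and Myocd were listed at 0 throughout. Other lists differed too. Cardiomyocyte markers summed to 94.3 TPM in the traced and 8.37 TPM in the negative cells, with Myl2 and Tnnt2 the most abundant and Myh6 listed at 0 in the former, whereas at least 3 of them were found in 0 of 27 and 1 of 24 cells. Epicardial markers summed to 11.6 TPM and 89.1 TPM, with Wt1 and Krt19 the most abundant, and endothelial markers to 21.1 TPM and 72.5 TPM, mostly Tek, with Kdr listed at 0 in both. Myeloid markers summed to 27.2 TPM in the traced and 7.18 TPM in the negative cells, mostly Cd14, with Ptprc listed at 0 in both. The part of these lists in the difference of Lox was not tested.

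Within the Tcf21 infarct capture, Tcf21-traced cells were set beside untraced cells that expressed Postn. Only the untraced class was labelled by Postn mRNA. Postn was above 5 TPM in 39 of 44 Tcf21-traced and 19 of 19 untraced cells, and the part of this labelling in the differences below was not tested. Loxl2 was 1.87 log2 units lower in the Tcf21-traced cells and Lox 1.28 lower, each below the larger SD of its pair, and Loxl3 and Loxl4 were 0.61 and 0.23 lower. Loxl1 differed by 0.04, and by -0.22 after centring. No member passed 2 log2 units in either direction (0.199% of 13593 genes higher, 0.419% lower), and more than 1 log2 unit lower were 2 members, Lox and Loxl2, beside 5.85% of all genes, with 0 members higher, beside 3.87%. Centring moved the median of all genes by -0.26 and turned 27 genes higher and 57 lower (32.1% higher) into 9 higher and 115 lower (7.26% higher). Loxl2 then differed by -2.13. In log2 of mean TPM Lox differed by -0.03, Loxl2 by -0.74 and Loxl3, with a change of sign, by 0.07, and in medians over cells Loxl3 by -1.07. Among cells with Lox above 5 TPM its median level was 8.49 in the Tcf21-traced and 8.20 in the untraced Postn-positive cells. At least 3 smooth muscle markers were found in 10 of 44 and 5 of 19 cells, at summed means of 462 TPM and 1204 TPM. Tagln was the most abundant of them in both classes, Myocd was listed at 0 in both and Myh11 and Cnn1 in the untraced, and their part was not tested.

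In the uninjured hearts the Tcf21-traced cells were set beside the CD31- CD45- cells without trace. Loxl3 was 1.54 and Loxl1 1.52 log2 units higher in the Tcf21-traced cells, each below the SD of that class, and Lox, Loxl2 and Loxl4 differed by -0.26, -0.30 and -0.20. No member passed 2 log2 units (2.47% of 10952 genes higher, 1.29% lower). More than 1 log2 unit higher were 2 members, beside 12.4% of all genes, and 0 were lower, beside 9.4%. Without the cell that held myeloid markers Loxl1 differed by 1.03 and Loxl2 by -0.64. Summed myeloid markers averaged 1505 TPM in the CD31- CD45- class, with Cd14 the most abundant and nearly all of it in that 1 cell of 12, against 21.96 TPM in the Tcf21-traced class, where Ptprc, Lyz2 and Adgre1 were listed at 0. Pericyte markers summed to 11.6 TPM in the Tcf21-traced and 87.3 TPM in the CD31- CD45- class, with Rgs5 and Cspg4 listed at 0 in both, and cardiomyocyte markers to 58.3 TPM, nearly all Tnnt2, and 0.443 TPM. Endothelial markers, all of it Tek, summed to 49.8 TPM and 9.36 TPM, and smooth muscle markers, mostly Smtn with Myh11, Cnn1 and Myocd listed at 0 in both, to 103 TPM and 49.5 TPM, and the part of these lists was not tested. In log2 of mean TPM Lox changed sign to 2.38, Loxl2 changed sign to 0.45 and Loxl3 differed by 4.55. Each of these values rests largely on a single Tcf21-traced cell, at 8.30 for Lox, 10.18 for Loxl2 and 8.26 for Loxl3 on the log2 scale. In medians over cells Loxl3 was 0 in both classes.

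The next 4 comparisons cross captures, so class and capture cannot be told apart in them, nor injury from either where resident cells are compared. The untraced Postn-positive label occurs in 3 captures and shows how far the same label can differ. Its mean Lox was 3.75 in the Postn tracer capture (6 cells), 7.81 in the Tcf21 capture (19 cells) and 5.51 in the scar capture (3 cells), a gap of 4.07 log2 units between the former 2. Loxl2 differed by 3.21 between the same 2 sets, Loxl1 by 1.04 and Loxl3 by 0.09. Both the Lox and the Loxl2 gap were larger than every difference between class means of a member across captures given below except that of Lox between activated and resident Tcf21-traced cells.

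Activated Tcf21-traced cells were compared with resident Tcf21-traced cells, the same lineage with and without infarct. Lox was 5.92 log2 units higher in the activated cells, more than either SD (3.41 and 2.01), and 3 genes of 13311 differed more in that direction. Loxl3 was 1.73, Loxl2 1.48 and Loxl1 0.96 higher, each below the larger SD of its pair, and Loxl4 was 0.18 higher. More than 2 log2 units higher was 1 member, beside 5.6% of all genes, with 0 lower, beside 0.548%. More than 1 log2 unit higher were 3 members, Lox, Loxl2 and Loxl3, beside 19.9%, with 0 lower, beside 3.13%. Genes per cell again moved with the classes (median 3134 against 2264), and centring moved the median of all genes by 0.45. That took Loxl3 past 2 log2 units higher beside Lox, with 1325 of 13311 genes past that size in place of 745. Among cells of intermediate gene number (22 and 9) Lox differed by 5.04, whereas Loxl2 changed sign to -0.23. In log2 of mean TPM Lox differed by 4.19, Loxl1 by 0.14 and Loxl2 by 0.17, and in medians over cells Loxl2 by 2.75 and Loxl3 by 3.66. At least 3 smooth muscle markers were found in 10 of 44 activated and 0 of 17 resident cells, at summed means of 462 TPM, with Tagln the most abundant, and 103 TPM, with Smtn the most abundant and Myh11, Cnn1 and Myocd listed at 0 throughout. Pericyte markers summed to 142 TPM in the activated and 11.6 TPM in the resident cells, with Pdgfrb the most abundant in both and Rgs5 and Cspg4 listed at 0 in the latter, and cardiomyocyte markers to 12.7 TPM and 58.3 TPM, mostly Tnnt2, and the part of these lists was not tested.

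**Figure D3:**
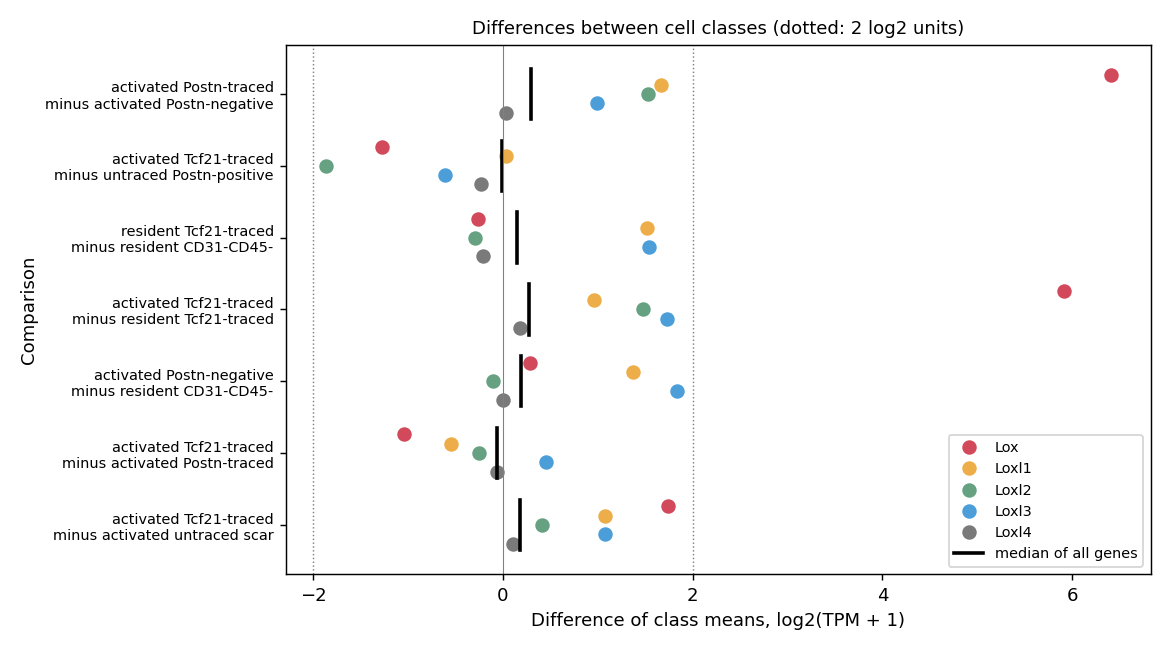
Differences between class means of log2(TPM + 1) (horizontal axis, log2 units) for the 5 members in 7 comparisons (vertical axis), a coloured point per member and a black bar for the median of all genes; dotted lines mark 2 log2 units. Lox lies far beyond 2 in the comparisons of Postn-traced with Postn-negative cells (6.41) and of activated with resident Tcf21-traced cells (5.92), and all other members lie within 2 in each comparison; the small Loxl1 difference between Tcf21-traced and untraced Postn-positive cells (0.04) changes sign when cells are centred.

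Postn-negative infarct cells were compared with resident CD31- CD45- cells, which asks what the infarct brings to cells without Postn. Loxl3 was 1.83 and Loxl1 1.37 log2 units higher in the infarct cells, below the SD of that class. Lox differed by 0.28, Loxl2 by -0.11 and Loxl4 by 0.00. No member passed 2 log2 units (3.06% of 11766 genes higher, 0.807% lower), and more than 1 log2 unit higher were 2 members, beside 13.7%, with 0 lower, beside 6.95%. Without the resident cell that held myeloid markers Loxl1 differed by 0.88, Loxl2 by -0.45 and Loxl4 by -0.02. Summed myeloid markers averaged 7.18 TPM in the Postn-negative and 1505 TPM in the resident class, nearly all of the latter in that 1 cell, and epicardial markers 89.1 TPM, with Krt19 the most abundant and at least 3 markers in 1 cell, against near 0 in the resident class. Endothelial markers summed to 72.5 TPM and 9.36 TPM, with Tek the most abundant in both and Kdr and Emcn listed at 0 in both, and the part of these lists was not tested. In log2 of mean TPM Lox differed by 2.93, with 4 Postn-negative cells above 5 TPM, Loxl2 changed sign to 1.11 and Loxl3 differed by 4.15, whereas in medians over cells Loxl3 was 0 in both classes.

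Between the lineage tracers, Tcf21-traced infarct cells were compared with Postn-traced infarct cells. Lox was 1.04 log2 units lower in the Tcf21-traced cells, Loxl1 0.55 lower and Loxl2 0.25 lower, whereas Loxl3 was 0.45 higher and Loxl4 differed by -0.06. Each of these lay below both SDs. No member passed 2 log2 units (0.392% of 14036 genes higher, 0.72% lower), and more than 1 log2 unit lower was 1 member, Lox, beside 6.88%, with 0 higher, beside 3.84%. In log2 of mean TPM Lox changed sign to 0.07, and in medians over cells Loxl2 changed sign to 0.49 and Loxl3 differed by 1.48. Among cells with Lox above 5 TPM its median level was 8.49 in 35 Tcf21-traced and 8.10 in 25 Postn-traced cells. At least 3 smooth muscle markers were found in 10 of 44 Tcf21-traced and 3 of 27 Postn-traced cells, at summed means of 462 TPM and 747 TPM, with Tagln the most abundant in both and Myocd listed at 0 in the former. Cardiomyocyte markers summed to 12.7 TPM and 94.3 TPM and epicardial markers to 1.97 TPM and 11.6 TPM, and the part of these lists was not tested.

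Tcf21-traced infarct cells were last compared with untraced scar cells. Lox was 1.74, Loxl1 1.08 and Loxl3 1.07 log2 units higher in the Tcf21-traced cells, below the larger SD of each pair, and Loxl2 and Loxl4 differed by 0.41 and 0.10. No member passed 2 log2 units (3.04% of 13943 genes higher, 0.0574% lower), and more than 1 log2 unit higher were 3 members, beside 14.9%, with 0 lower, beside 1.26%. Centring moved the median of all genes by 0.84, and Lox then differed by 2.57. Without the 6 scar cells with few genes these differences were 0.70 for Lox, 0.23 for Loxl1 and 0.77 for Loxl3, Loxl2 changed sign to -0.80, and the genes past 2 log2 units went from 424 higher and 8 lower to 109 higher and 70 lower. In log2 of mean TPM Loxl1 differed by -0.02, which rests in part on 1 scar cell with Loxl1 at 10.91 on the log2 scale. In medians over cells Loxl3 differed by 3.66. At least 3 smooth muscle markers were found in 10 of 44 Tcf21-traced and 2 of 29 scar cells, at summed means of 462 TPM and 208 TPM, with Tagln the most abundant and Myocd listed at 0 in both. Pericyte markers summed to 142 TPM and 330 TPM, with Pdgfrb, which fibroblasts also express, the most abundant in both and Cspg4 listed at 0 in the scar cells. Epicardial markers summed to 1.97 TPM and 90.1 TPM, nearly all of it Wt1, and the part of these lists in the differences of the members was not tested. At least 3 fibroblast markers were found in 44 of 44 Tcf21-traced and 25 of 29 scar cells, and the scar cells without them were among those with few genes. Myeloid markers summed to 8.83 TPM and 36.2 TPM, and the 1 scar cell with 3 of them (56.7 TPM) also held 5 fibroblast markers. Without that cell Lox differed by 1.84, Loxl1 by 1.11 and Loxl3 by 1.11.

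Co-detection described which members a cell used together, over the 172 cells of the 7 sets with at least 10 cells. All 105 cells with Lox above 5 TPM also held Loxl1, and 90 of them held Loxl2. All 69 cells with Loxl3 held Loxl1 as well, and 56 of them held Lox. Loxl1 and Loxl2 were found together in 127 cells, out of 129 with Loxl2. Loxl1 is in nearly all cells, so its pairing with other members adds little to its share. Of the cells with Loxl3, those that also held Lox are given by class, to be read beside the share of Lox in that class. All 11 Loxl3 cells among the Postn-traced, 22 of 23 among the Tcf21-traced, all 12 among the untraced Postn-positive of their capture and all 10 among the scar cells held Lox, but 1 of 8 among the Postn-negative cells and 0 of 5 among the resident Tcf21-traced cells did. Lox itself was in 92.6%, 79.5%, 100%, 65.5%, 16.7% and 5.88% of these classes in that order, so the share among Loxl3 cells was above it in the Tcf21-traced and scar cells and near it elsewhere. Lox and Loxl3 were thus found together in 22 of 44 Tcf21-traced, 10 of 29 scar and 1 of 24 Postn-negative cells. Cells that held both had more genes above 5 TPM in the Tcf21-traced class (median 4158 against 2607 in the rest) and not in the scar class (3081.5 against 3177). That rest includes scar cells with Lox alone. With Lox the scar cells had a median of 3232 genes, and without it 1411.5. Outside the few-gene group Lox was in 78.3% of scar cells, and the part of depth in these counts was not tested.

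At least 3 members were above 5 TPM in 24 of 27 Postn-traced cells, 88.9% (95% interval 70.8 to 97.6), in 33 of 44 Tcf21-traced cells, 75% (59.7 to 86.8), and in 19 of 19 untraced Postn-positive cells of the Tcf21 capture. The share was 65.5% in scar cells (45.7 to 82.1), 33.3% in Postn-negative cells (15.6 to 55.3), 17.6% in resident Tcf21-traced cells (3.80 to 43.4) and 16.7% in resident CD31- CD45- cells (2.09 to 48.4). Cells of both resident classes most often held 2 members, and none held 4. All 5 members were found in 2 cells, and none in 5 cells, of which 4 were scar cells with a median of 216 genes. Cells with more members had more genes above 5 TPM in the Tcf21-traced class, with medians of 2530.5 genes for cells with 2 members, 2839 for 3 and 4182.5 for 4. In the scar class the medians were 216 genes for 0 members, 3346 for 1, 2636 for 2, 3324 for 3 and 3230.5 for 4, and the part of depth in these shares was not tested.

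**Figure D4:**
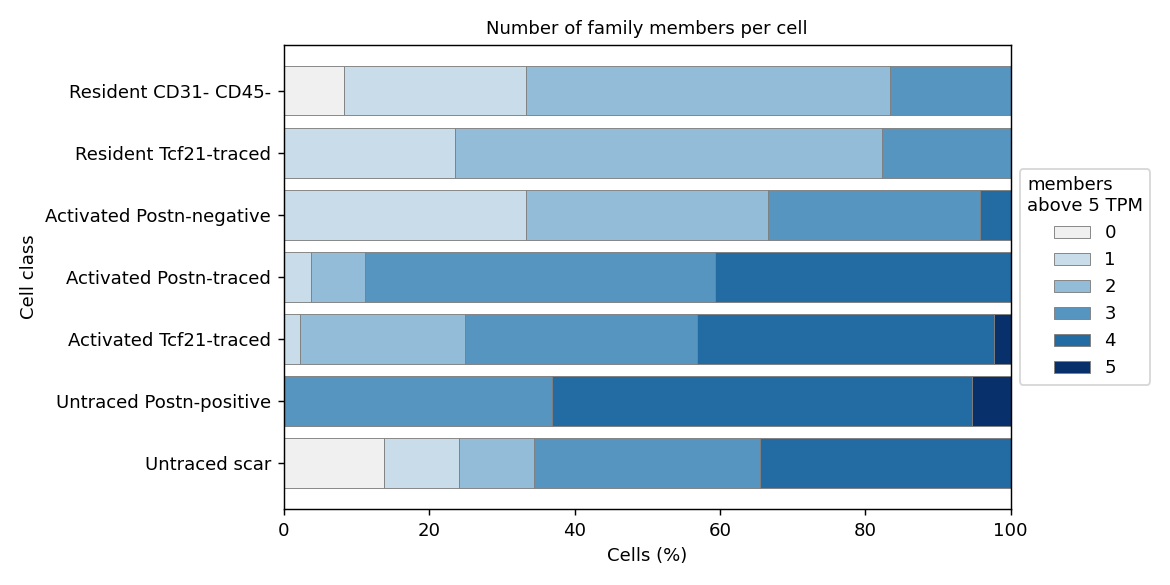
Number of family members above 5 TPM per cell as a share of the cells (horizontal axis, percent) in the 7 class-and-capture sets (vertical axis), darker for more members. Cells with 3 or more members are 88.9% of Postn-traced, 75% of Tcf21-traced and all untraced Postn-positive cells, but 33.3% of Postn-negative and 16.7% of resident CD31- CD45- cells.

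Lox was also set beside Postn, which encodes a matrix protein that aids the activation of the Lox pro-enzyme and whose mRNA defines several classes. In the Tcf21-traced cells, which were not labelled by Postn mRNA, 34 of 35 cells with Lox also held Postn, and 5 of 9 cells without Lox did. In the scar cells 17 of 19 cells with Lox held Postn, and 7 of 10 without it did. With or without Lox, Postn was above 5 TPM in 39 of 44 Tcf21-traced and 24 of 29 scar cells. Cells with Lox also had more genes above 5 TPM than cells without it. The medians were 3487 against 2410 in the Tcf21-traced and 3232 against 1411.5 in the scar class, and the part of depth was not tested. The 4 Postn-negative cells with Lox held no Postn above 5 TPM, and neither did the resident Tcf21-traced cell with Lox. Col1a1, a main substrate chain, was above 5 TPM in every cell with Lox of these 7 sets, and Eln, the elastin gene, in 24 of 35 such Tcf21-traced cells and 16 of 25 such Postn-traced cells. With or without Lox, Col1a1 was above 5 TPM in 165 of the 172 cells, and Eln in 28 of 44 Tcf21-traced and 16 of 27 Postn-traced cells. The counts among cells with Lox thus lay near the shares of all cells.

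Across the 172 cells, after the mean of each class in its capture was taken away, Lox and Loxl3 varied together most among the members, with a Pearson correlation of 0.40 (Spearman 0.39). The cells of a class share their library preparation and differ in depth, and Lox itself correlated at 0.54 with the number of genes above 5 TPM. With that number as a covariate the correlation of Lox with Loxl3 was 0.26, that of Lox with Loxl1 went from 0.21 to 0.09 and that of Lox with Loxl2 from 0.14 to -0.06. Within classes, Lox and Loxl3 correlated at 0.56 in the Tcf21-traced, 0.58 in the scar and 0.39 in the Postn-traced cells, and at -0.04 in the Postn-negative cells. Lox and Loxl1 correlated at 0.60 within the scar cells and at -0.40 within the untraced Postn-positive cells of the Tcf21 capture. The scar class holds the cells with few genes, and without them (23 cells) Lox correlated at 0.58 with Loxl1 and 0.52 with Loxl3. Over the pooled cells without them (166) Lox correlated at 0.37 with Loxl3 and 0.10 with Loxl1. Over the pooled 172 cells the remaining pairs of members lay between -0.02 and 0.13.

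The 5 genes most like each member were named among 7772 genes above 5 TPM in at least 10% of the 172 cells, by the same correlation. For Lox they were Cthrc1 (0.53), which encodes a secreted collagen-associated protein, Col3a1 (0.48), Fn1 (0.46), Praf2 (0.45) and Csrp2 (0.44), beside 0.11 for the median gene. With genes per cell as a covariate they were 0.39, 0.34, 0.20, 0.26 and 0.23 in that order, so each of these correlations of Lox was lower, and Lox correlated no less with genes per cell itself (0.54). For Loxl3 they were Cthrc1 (0.53), Ddah1 (0.46), Wisp1 (0.45), Htra2 (0.44) and Ltbp2 (0.40), and with genes per cell as a covariate 0.45, 0.40, 0.35, 0.40 and 0.37, so that Cthrc1 led the list of both members. For Loxl1 they were Rpl35 (0.47), Rps20 (0.44), Col1a1 (0.44), Ppib (0.43) and Gm10222 (0.43), which include ribosomal protein genes present in nearly all cells. For Loxl2 they were S100a6 (0.39), Qk (0.39), Slc25a37 (0.38), Ifitm3 (0.38) and Eprs (0.36). The next gene after each list lay close to its last (Actn1 at 0.44 for Lox, Lox itself at 0.40 for Loxl3), and without the class means taken away 3, 4, 2 and 3 of the 5 genes were shared for Lox, Loxl1, Loxl2 and Loxl3. Loxl4 was above 5 TPM in too few cells for such a list.

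Htra2, the antisense neighbour that shares exonic bases with Loxl3, stands on the list of Loxl3. Htra2 was above 5 TPM in 44 of 73 cells with Loxl3 (60.3%) and in 22 of 112 cells without it (19.6%), while 29 cells held Loxl3 without Htra2. Without strand in the counting, how far reads of either gene were assigned to the other cannot be told apart from expression of both.

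The 38 further genes of the crosslinking pathway that the table lists were described by group, from substrates to other crosslinking enzymes. Between Postn-traced and Postn-negative cells 22 of them were more than 1 log2 unit higher and 3 lower in the traced cells, beside 19.8% and 2.77% of all genes, with a median difference of 1.47 beside 0.30. All 6 substrates, the fibrillar collagens and elastin that lysyl oxidases act on, were more than 1 log2 unit higher, from Eln (1.84) to Col1a1 (3.90). Of 8 genes of pro-enzyme processing and docking, 4 were higher and 1 lower by that size. They ran from Pcolce2 (-1.69), an enhancer of procollagen processing, to Postn (10.37), whose mRNA defines the negative class, with Fn1 (5.98) and Bmp1 (3.12), the protease that cleaves the Lox pro-region, between. Of 7 genes of the elastic fibre scaffold, 5 were higher and 1 lower, from Ltbp4 (-1.62) to Mfap2 (7.40). Efemp2, which encodes fibulin-4, a partner of Lox in elastic fibre assembly, was 4.67 higher.

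Of 4 genes of copper transport, which serves to load the enzymes, 1 was more than 1 log2 unit higher, Atox1 (1.46), with a list median of 0.83, and Atp7b listed at 0 in both classes. Of 6 genes of lysyl hydroxylation, which prepares the collagen lysines for crosslinking, 3 were higher, from P3h4 (-0.16) to Fkbp10 (3.97), with Plod2, the hydroxylase of collagen telopeptides, at 2.93. The 4 small proteoglycans that coat fibrils ran from Dcn (-0.86) to Fmod (1.97), with 2 higher. Of 3 other crosslinking enzymes, Pxdn was 3.30 higher and Tgm2 1.29 lower (a difference of -1.29), and F13a1 was listed at 0 in both classes.

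**Figure D5:**
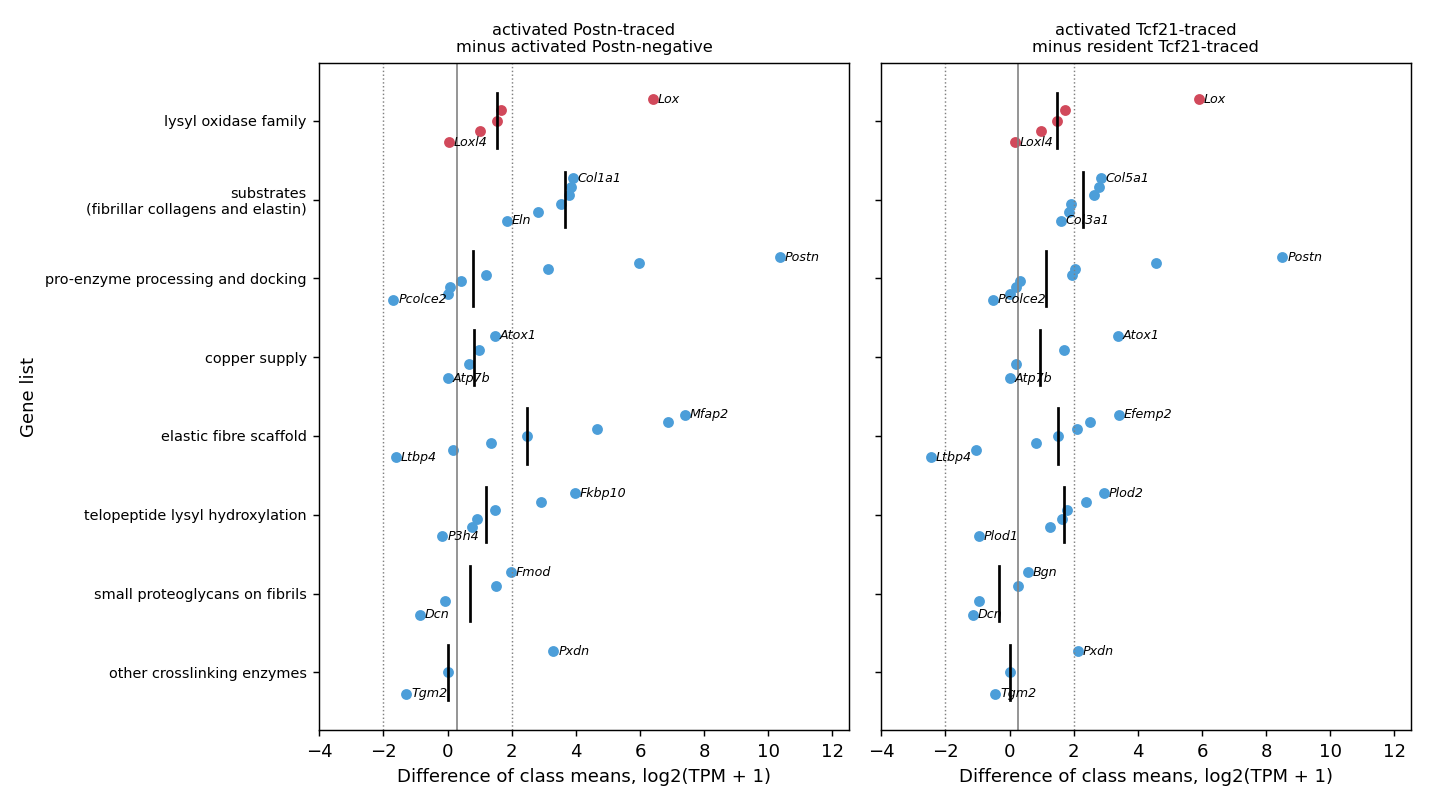
Differences between class means of log2(TPM + 1) (horizontal axes, log2 units) for the family and 7 lists of pathway genes (vertical axis), a point per gene and a black bar for each list's median, in Postn-traced minus Postn-negative cells (left) and activated minus resident Tcf21-traced cells (right); the grey line is the median of all genes and dotted lines mark 2 log2 units. Lox lies at 6.41 and 5.92, beyond every gene of the substrate list (at most 3.90 and 2.84), and Postn lies furthest at 10.37 and 8.51.

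Between activated and resident Tcf21-traced cells 22 of the 38 genes were again more than 1 log2 unit higher and 3 lower, beside 19.9% and 3.13% of all genes, with a median of 1.61 beside 0.27. The 6 substrates were all higher by that size, from Col3a1 (1.60) to Col5a1 (2.84). The processing and docking genes held 4 that were higher and 0 lower, from Pcolce2 (-0.53) to Postn (8.51), and the elastic fibre scaffold 4 higher and 2 lower, from Ltbp4 (-2.44) to Efemp2 (3.41). Of the copper genes 2 were higher, with Atox1 at 3.39, and of the hydroxylation genes 5, from Plod1 (-0.95) to Plod2 (2.94). The small proteoglycans went from Dcn (-1.15) to Bgn (0.56), with 0 higher and 1 lower, and of the other crosslinking enzymes 1 was higher, Pxdn (2.13), and Tgm2 had the lowest difference, -0.44. In both comparisons Lox differed more than any gene of the substrate, copper, hydroxylation, proteoglycan and other crosslinking lists.

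In the remaining comparisons fewer pathway genes were past 1 log2 unit higher. Between Tcf21-traced and untraced Postn-positive cells 0 of 38 were higher by that size and 9 lower, beside 3.87% and 5.85% of all genes (median -0.45 beside -0.01). Between Tcf21-traced and Postn-traced cells 2 were higher and 13 lower, beside 3.84% and 6.88% (median -0.30 beside -0.06), with Mfap4 (-4.03) furthest. In 3 comparisons the share of pathway genes more than 1 log2 unit lower lay closer to that of all genes, whereas the share higher by that size lay above it. Between resident Tcf21-traced and resident CD31- CD45- cells 8 were higher and 3 lower, beside 12.4% and 9.4% (median 0.22 beside 0.15), and between Postn-negative and resident CD31- CD45- cells likewise 8 and 3, beside 13.7% and 6.95% (median 0.05 beside 0.19). Between Tcf21-traced and scar cells 8 were higher and 1 lower, beside 14.9% and 1.26% (median 0.38 beside 0.18). In the comparisons of Tcf21-traced with untraced Postn-positive and with Postn-traced cells, Lox had a negative difference (-1.28 and -1.04) and so did the pathway median, with the change of sign of Lox in the latter under log2 of mean TPM given above.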

How the data were processed

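The values used are log2(TPM + 1) as deposited by the authors, who, per their processing notes, aligned reads with Bowtie 1.0.0 to mm10 and estimated TPM with eXpress 1.5.1. The table holds 17171 genes and 185 cells with a sample; 3 further columns without a sample were not used. Values were not rescaled. Class means, SDs, shares above 5 TPM and correlations across cells were computed with Python 3.11.15, NumPy 2.4.6, pandas 2.3.3 and SciPy 1.17.1, and figures with Matplotlib 3.10.9. A difference past 2 log2 units between class means was the call, over genes above 5 TPM in at least 1 cell of either class, with 1 log2 unit as a smaller size.

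The members and gene lists were chosen with earlier results of these data known. Genes are named by rule: the 5 members; for each pathway list, its counts past 1 and 2 log2 units and its lowest and highest difference; and the 5 genes most like each member found above 5 TPM in at least 20 cells. Genes picked out besides these carry a stated role beside Lox. Tll1, Tgm1 and Cdh5 of the lists have no entry under these symbols, and P3h3, P3h4 and Adgre1 were read under older symbols. No doublet caller was run; the methods describe viewing captured cells by microscopy. The scripts were tested on simulated data. Alternatives tried were other pseudocounts, log2 of mean TPM, medians over cells, centring of each cell, cells of intermediate gene number, other minimum values and other sets of cells. Leaving out cells with myeloid markers, and cells with few genes from the correlations, was added after the data were seen. Gene positions and transcript sequences are from GENCODE vM21 on GRCm38.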

Additional observations from a re-analysis of the deposited data

How the results depend on the processing

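Over 35 differences of members there were 235 alternative values, of which 230 lay within the larger SD of the 2 classes from the reported value and 5 moved further. Where a difference under 2 log2 units changed sign, at least 1 alternative that did so is named in the report, for Loxl4 in words. All 5 that moved further are in log2 of mean TPM over cells: Lox 3.58 between Postn-traced and Postn-negative cells, Loxl4 -2.05 between Tcf21-traced and untraced Postn-positive cells, Lox 2.38 and Loxl3 4.55 between the resident classes, and Lox 2.93 between Postn-negative and resident CD31- CD45- cells. The 2 differences past 2 log2 units kept sign and size past 2 in 14 of 14 alternatives. Of 75 alternative shares of cells 63 lay inside the reported interval. Of 20 alternative correlations 18 lay inside a 95% Fisher interval around the reported one, which was used as a tolerance. Those of Lox with Loxl2 and with Loxl3 given genes per cell did not. Inside it, given genes per cell, those of Loxl2 with Loxl3 (0.08 to -0.04) and of Lox with Loxl4 (0.002 to -0.025) changed sign. That of Loxl2 with Loxl4 did so by Spearman correlation (-0.015 to 0.005).

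Counts of genes past 2 log2 units depended on the averaging and pseudocount. Higher and lower, they ran from 209 to 2460 and 51 to 1307 for Postn-traced minus Postn-negative, 1 to 1557 and 6 to 978 for Tcf21-traced minus untraced Postn-positive, and 70 to 2771 and 38 to 1963 for the resident classes. They ran from 232 to 2996 and 30 to 1252 for activated minus resident Tcf21-traced, 127 to 3184 and 24 to 1679 for Postn-negative minus resident CD31- CD45-, 17 to 1154 and 21 to 1326 for Tcf21-traced minus Postn-traced, and 106 to 1707 and 2 to 1193 for Tcf21-traced minus scar.

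No paired analysis was possible because the numbers in the cell names count cells within a capture and pair no cell of a class with a cell of another. Each class is 1 sample, cells are not replicates, and injury, class and capture cannot be told apart across captures. Sequencing depth of each cell and strand of the reads were not used.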

Other observations

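The single cells below were chosen after their values were seen, and levels are log2(TPM + 1). The resident Tcf21-traced cell with the highest Lox, 8.30, had Postn listed at 0, Tcf21 at 5.74 and 2301 genes above 5 TPM. Another resident Tcf21-traced cell had Loxl3 at 8.26 with Lox listed at 0.

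Among Postn-negative cells, that with the highest Lox, 8.52, had Cthrc1 at 8.40, Fn1 at 9.25 and Postn at 1.60, with 4881 genes above 5 TPM, the most of its class, and 4 members detected. The next, with Lox at 8.04, had Loxl2 at 9.97, Tcf21 at 8.34 and Postn listed at 0.

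The 2 Postn-traced cells without detected Lox had it at 0 and 0.52 beside Postn at 10.23 and 10.37. A Tcf21-traced cell had Lox listed at 0 beside Postn at 11.66. A scar cell with 218 genes above 5 TPM held Loxl1 at 10.91, the highest Loxl1 level of any cell, with the other 4 members listed at 0.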
